A study of Mus with 10 samples.

Results

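The genes described here copy DNA: the 6 subunits of the MCM2-7 helicase (Mcm2, Mcm3, Mcm4, Mcm5, Mcm6 and Mcm7), its partners Cdc45 and Gins1, the sliding clamp Pcna, and Rrm2, a subunit of ribonucleotide reductase. They are 10 of the 22180 genes measured, chosen by name with earlier results of these data known. All 10 were measured with no filter on dim signals. Mouse skin was profiled on 10 Affymetrix arrays. The groups were 4 PUVA 7D arrays, 4 PUVA 3D arrays and 2 control arrays, all from female BALB/c mice aged 7-8 weeks. PUVA is topical psoralen, a compound that crosslinks DNA when lit, followed by UVA, here at 0.25 J/cm2, given 2 times a week for 2 weeks. The labels place imiquimod, which induces a psoriasis-like dermatitis, 3 or 7 days after PUVA, and describe controls as having no gap. Whether imiquimod had been applied to the arrayed skin, and what else the controls received, is not stated in the labels, and no group is described as with or without it. Control 2 is the control whose title number stands apart from the other samples' numbers.

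DNA replication starts in G1 phase, when the origin recognition complex, Cdc6 and Cdt1 load the ring of Mcm2 to Mcm7 onto DNA, a step called licensing. In S phase Cdc45 and the GINS complex, which holds Gins1, join that ring and turn it into the active helicase. Pcna then tethers polymerases to the template, and ribonucleotide reductase supplies the deoxynucleotides. Many of these genes are targets of E2F transcription factors and are transcribed mainly in dividing cells. In skin, dividing cells lie in the basal epidermis and, during hair growth, in the matrix of the follicle.

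Array medians over all probe sets lay between 5.83 and 5.86 on the log2 scale. The skin label was checked against the epidermal keratins Krt14, Krt1 and Krt10, which had log2 values of 11.91 to 12.81 on the PUVA 7D arrays, 11.76 to 12.79 on the PUVA 3D arrays and 12.01 to 12.76 on the controls. The upper quartile of genes was 8.18 to 8.23. Control 2 stood apart from the other 9 arrays in the genes described here, so their comparisons with control are given with both controls and with each alone. The labels give a number in each title but no statement on separate animals, so the p-values describe variation among these arrays, part of which could be technical. The number of arrays limits the precision, above all the 2 controls.

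On average the replication genes lay lower in both PUVA groups than in control, but the difference was large against control 2 and small or absent against control 1. All 10 genes had their highest value on control 2, a pattern shown by 11.5% of all genes. Control 1 lay within the range of the 8 PUVA arrays in 8 of the 10, as it did in 82.5% of all genes. The exceptions were Gins1 and Rrm2, in which all 8 PUVA arrays lay below both controls, as did 2.22% of all genes. No gene of the 10 passed an adjusted p of 0.05 in any comparison (limma, Benjamini-Hochberg over 22180 genes). In bulk skin, fewer dividing cells and less RNA per dividing cell cannot be told apart.

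Mcm2, the subunit that also carries histones at the fork, had log2 values of 7.08, 6.96, 6.56 and 6.72 on the PUVA 7D arrays, 6.89, 7.38, 7.04 and 6.82 on the PUVA 3D arrays, and 6.88 and 8.07 on controls 1 and 2. Control 2 was the one high array, and control 1 overlapped both PUVA groups. Mcm5, which flanks the gate through which the ring opens onto DNA together with Mcm2, had 7.27, 6.99, 6.96 and 6.87 on the PUVA 7D arrays, 7.06, 7.69, 7.43 and 7.28 on the PUVA 3D arrays, and 7.26 and 8.44 on the controls. It had the lowest mean in the PUVA 7D group relative to control among the 10, at a fold of 0.563, yet control 1 lay just below the highest PUVA 7D array.

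Mcm3, whose subunit sits beside Mcm5 in the ring, had log2 values of 7.70, 7.43, 7.27 and 7.23 on the PUVA 7D arrays, 7.60, 8.01, 7.69 and 7.56 on the PUVA 3D arrays, and 7.48 and 8.46 on the controls. Here control 1 lay below all 4 PUVA 3D arrays, so the 2 controls bracketed that group. Mcm4 had 8.37, 8.35, 8.17 and 8.26 on the PUVA 7D arrays, 8.33, 8.50, 8.34 and 8.43 on the PUVA 3D arrays, and 8.35 and 9.07 on the controls. Mcm6 had 7.36, 7.52, 7.13 and 7.14 on the PUVA 7D arrays, 7.35, 7.74, 7.54 and 7.48 on the PUVA 3D arrays, and 7.52 and 8.49 on the controls. Mcm4 and Mcm6, which with Mcm7 form the helicase core, showed control 1 among the PUVA arrays and control 2 far above. Mcm7 had 7.61, 7.58, 7.62 and 7.26 on the PUVA 7D arrays, 7.44, 7.65, 7.72 and 7.63 on the PUVA 3D arrays, and 7.65 and 8.42 on the controls. All 4 PUVA 7D values of Mcm7 lay below both controls, while the PUVA 3D values overlapped control 1. Another 2 probe sets are annotated to Mcm7 together with a microRNA gene it hosts, and were not used here.

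Gins1, a subunit of the GINS complex, had log2 values of 5.13, 5.05, 4.86 and 4.89 on the PUVA 7D arrays, 4.96, 5.13, 5.13 and 5.07 on the PUVA 3D arrays, and 5.28 and 6.04 on the controls. Both controls lay above all 8 PUVA arrays, control 1 by a small margin. Cdc45, the other helicase activator, had 6.47, 6.45, 6.58 and 6.25 on the PUVA 7D arrays, 6.47, 6.73, 6.50 and 6.55 on the PUVA 3D arrays, and 6.62 and 7.29 on the controls. Its PUVA 7D arrays lay below both controls, whereas 1 of the PUVA 3D arrays exceeded control 1.

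Pcna, the clamp, had the smallest differences from control of the 10, with log2 values of 9.82, 9.68, 9.64 and 9.61 on the PUVA 7D arrays, 9.69, 9.90, 9.76 and 9.85 on the PUVA 3D arrays, and 9.80 and 10.09 on the controls. Control 1 overlapped both PUVA groups. Rrm2, the subunit of ribonucleotide reductase that is made in S phase, had 6.89, 6.89, 6.71 and 6.55 on the PUVA 7D arrays, 6.99, 6.82, 6.74 and 6.72 on the PUVA 3D arrays, and 7.00 and 7.61 on the controls. Both controls lay above every PUVA array, with PUVA 3D replicate 1 almost level with control 1. A second Rrm2 probe set was dim, at 2.34 to 2.67 on the PUVA 7D arrays, 2.53 to 2.76 on the PUVA 3D arrays, and 2.56 and 2.75 on the controls, and showed no such gap. With the mean of both probe sets in place of the brighter one, the log2 difference of Rrm2 from control was -0.34 at 7D and -0.24 at 3D.

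**Figure D1:**
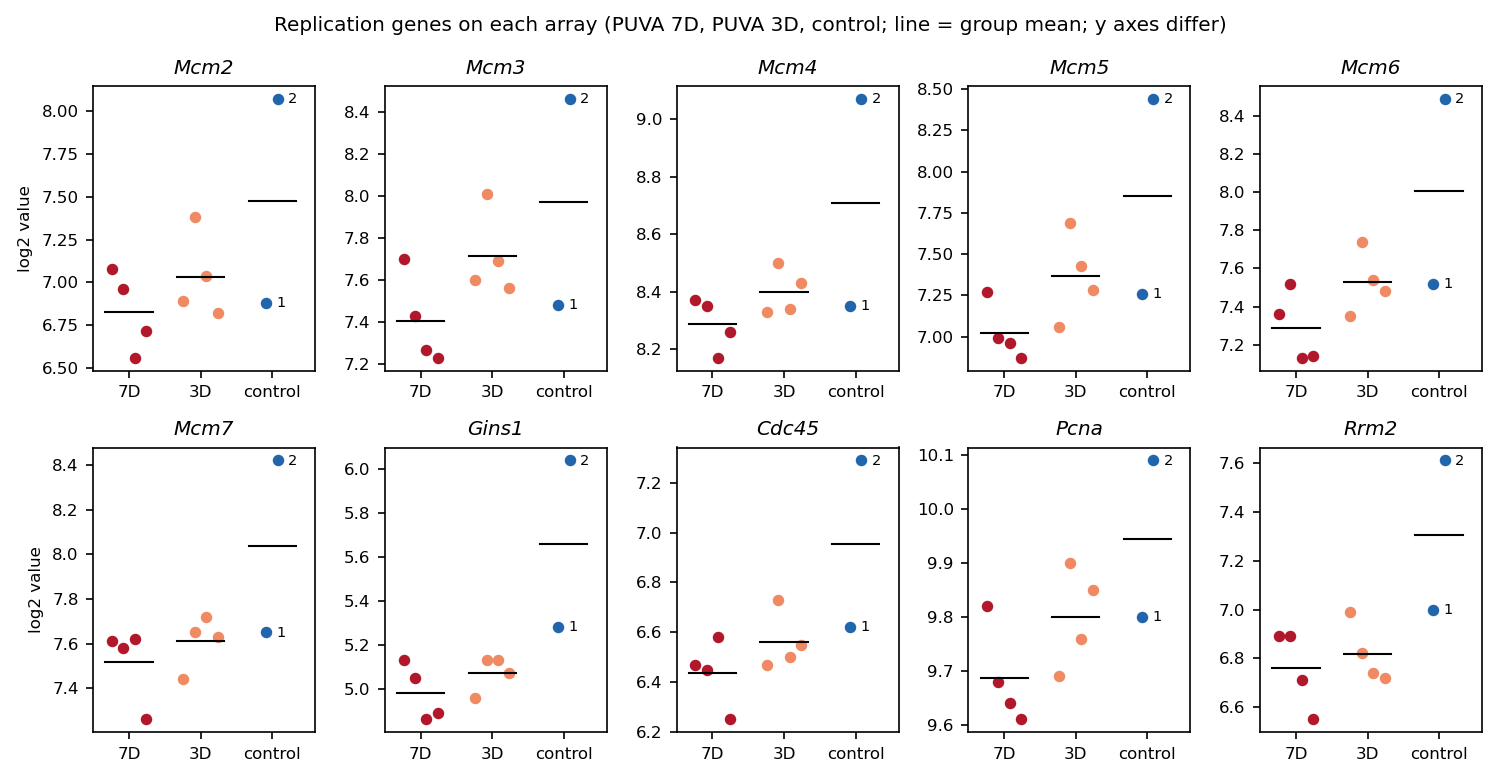
Log2 values of the 10 replication genes (y axis, scaled for each gene) on every array of the PUVA 7D, PUVA 3D and control groups (x axis), with 1 dot per array, controls numbered and the group mean as a line. Control 2 is the highest of the 10 arrays for all 10 genes, while control 1 lies within the range of the 8 PUVA arrays for 8 of them.

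How PUVA 7D skin differed from control skin was examined first. All 10 replication genes had a negative log2 difference, from -0.83 for Mcm5 to -0.26 for Pcna, with a median of -0.56, against a median of 0.02 over all genes, of which 45.0% were below 0. No gene of the 10 passed the adjusted threshold, the background being 0.0% of 22180 genes, and their lowest adjusted p was 0.748 (limma). At an unadjusted p under 0.05 all 10 were lower, against 2.68% of all genes. In 4 of the 10, Mcm7, Gins1, Cdc45 and Rrm2, the PUVA 7D arrays lay below both controls, against 5.85% of all genes.

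Among helicase genes of the PUVA 7D group, Mcm5 averaged 7.02 ± 0.17 (SD, n = 4) against 7.85 ± 0.84 in control (SD, n = 2), a log2 difference of -0.83 ± 0.28 (SE, limma adjusted p = 0.763). Mcm6 averaged 7.29 ± 0.19 against 8.00 ± 0.68, a difference of -0.72 ± 0.23. Mcm2 averaged 6.83 ± 0.24 against 7.48 ± 0.84, a difference of -0.65 ± 0.28. For these 3 genes the SD of the controls was larger than the difference or close to it. Mcm3 had a difference of -0.57 ± 0.24, Mcm7 of -0.52 ± 0.19 and Mcm4 of -0.42 ± 0.16. Gins1 averaged 4.98 ± 0.13 in PUVA 7D skin against 5.66 ± 0.53 in control, a difference of -0.68 ± 0.17 (limma adjusted p = 0.748), and only 0.257% of all genes had a smaller p. Cdc45 had a difference of -0.52 ± 0.17, Rrm2 of -0.55 ± 0.16 and Pcna of -0.26 ± 0.11. These errors are standard errors from 1 pooled spread per gene, and since the controls varied more than the PUVA arrays they are too small for comparisons with control.

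With control 1 alone as the reference, the 10 genes still lay lower in the PUVA 7D group, but by a median of -0.16, from -0.30 for Gins1 to -0.06 for Mcm2 and Mcm4. None of the 10 then passed, against 0.00451% of all genes called lower, and the lowest adjusted p was 1.0 (limma). At an unadjusted p under 0.05 only Gins1 was lower with control 1 alone, against 1.0% of all genes. With control 2 alone the median was -0.98, from -1.42 for Mcm5 to -0.40 for Pcna, and 9 of the 10 passed, all but Pcna, with adjusted p of 0.00468 to 0.0496 in limma, against 0.884% of all genes called lower. In these fits the single control is assumed to vary like the PUVA arrays.

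PUVA 3D skin was then set against the same 2 controls. All 10 genes had a negative log2 difference, from -0.59 for Gins1 to -0.15 for Pcna, with a median of -0.44, against a median of 0.00 over all genes, of which 49.4% were below 0. No gene of the 10 passed, against a background of 0.00451% of all genes called lower, and their lowest adjusted p was 0.349 (limma). At an unadjusted p under 0.05, 4 of the 10 were lower (Mcm7, Gins1, Cdc45 and Rrm2), against 4.07% of all genes. In 2 of the 10, Gins1 and Rrm2, the groups did not overlap, against 7.89% of all genes in that direction.

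Gins1 averaged 5.07 ± 0.08 on the PUVA 3D arrays (SD, n = 4) against 5.66 ± 0.53 in control (SD, n = 2), a log2 difference of -0.59 ± 0.17 (SE, limma adjusted p = 0.349). Rrm2 averaged 6.82 ± 0.12 against 7.31 ± 0.43, a difference of -0.49 ± 0.16 (limma adjusted p = 0.395). Cdc45 had a difference of -0.39 ± 0.17 and Pcna of -0.15 ± 0.11. The MCM subunits ran from -0.49 ± 0.28 for Mcm5 through -0.48 ± 0.23 for Mcm6, -0.45 ± 0.28 for Mcm2, -0.43 ± 0.19 for Mcm7 and -0.31 ± 0.16 for Mcm4 to -0.26 ± 0.24 for Mcm3. For Mcm3 the standard error was nearly as large as the difference.

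With control 1 alone the median of the 10 in the PUVA 3D group was 0.00 and 5 lay below 0, among them Pcna at -0.00. Mcm2 had 0.15, Mcm3 0.23, Mcm4 0.05, Mcm5 0.11 and Mcm6 0.01, all with the direction turned, while Gins1 had -0.21 and Rrm2 -0.19. None of the 10 passed with control 1 alone, against 0.00902% of all genes called lower, and 0 were lower at an unadjusted p under 0.05, against 2.99% of all genes (limma). With control 2 alone the median was -0.80, and 3 passed, Mcm4, Mcm6 and Gins1, with adjusted p of 0.0366, 0.0493 and 0.00911 in limma, against 0.744% of all genes called lower. For 5 of the 6 MCM genes the sign of the PUVA 3D difference thus changed with the control used. With control 1 alone these 5 differences were small, at 0.01 to 0.23 from a single array, and show no rise.

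**Figure D2:**
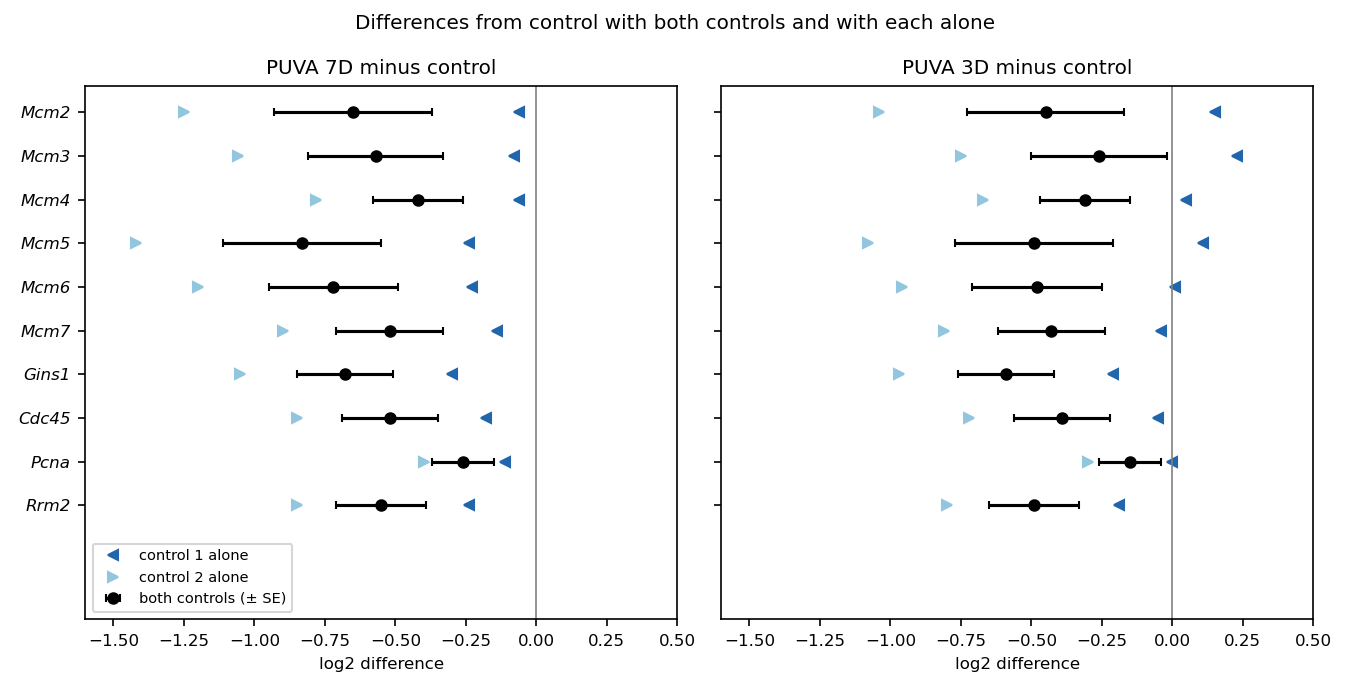
Log2 difference (x axis) of each of the 10 genes (y axis) between PUVA 7D and control (left) and between PUVA 3D and control (right), as a black dot with its SE (bar) for both controls and as triangles for control 1 or control 2 alone. With control 1 alone the median difference is -0.16 for PUVA 7D and 0.00 for PUVA 3D, and with control 2 alone it is -0.98 for PUVA 7D and -0.80 for PUVA 3D.

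The gap between the controls was itself wide in these genes. Control 2 exceeded control 1 by 0.29 (Pcna) to 1.19 (Mcm2) on the log2 scale, with a median of 0.76. Over all genes the same difference had a median of -0.01, and its 5th and 95th percentiles were -0.39 and 0.42. A difference as large as the median of the 10 was found in 1.19% of all genes, and one as large as that of Pcna in 9.54%. In all 10 genes the gap between the controls was larger than the whole range of the 8 PUVA arrays, against 4.42% of all genes. The largest gaps were those of Mcm2 (1.19), Mcm5 (1.18), Mcm3 (0.98) and Mcm6 (0.97), and Mcm7 (0.77), Gins1 (0.76), Mcm4 (0.72), Cdc45 (0.67) and Rrm2 (0.61) followed. These are differences between single arrays and carry no test.

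**Figure D3:**
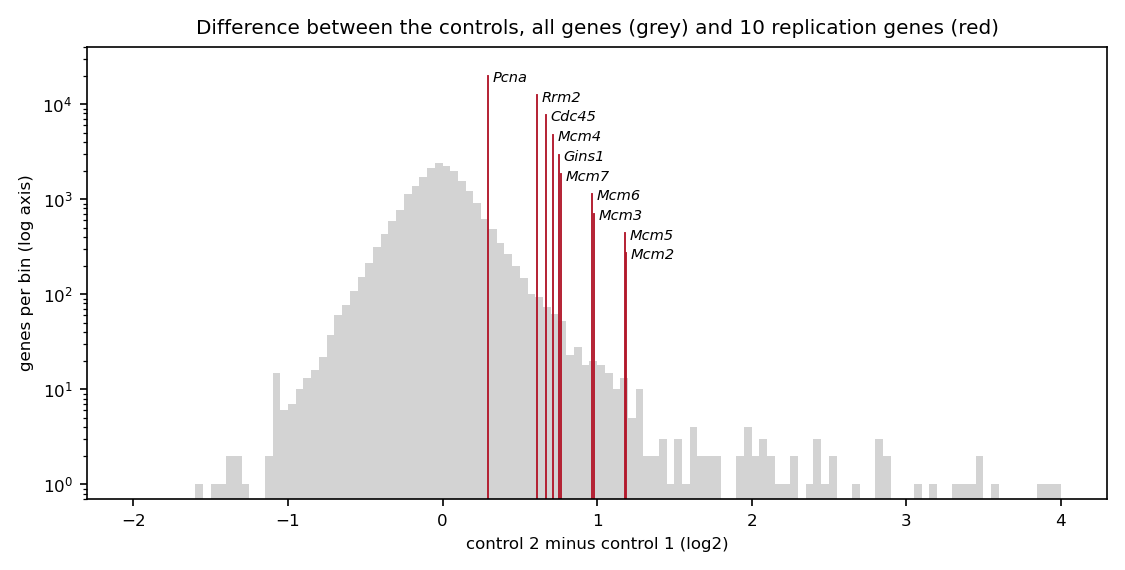
Number of genes (y axis, log scale) by the log2 difference of control 2 minus control 1 (x axis), for all genes in grey, with the 10 replication genes as red lines whose height only spaces the names. The 10 lie between 0.29 and 1.19, whereas the 95th percentile of all genes is 0.42.

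The third comparison set the PUVA 7D group against the PUVA 3D group and does not rest on the controls for its differences. All 10 genes had a lower mean in the PUVA 7D group, with log2 differences from -0.34 for Mcm5 to -0.06 for Rrm2 and a median of -0.12, against a median of 0.01 over all genes, of which 46.8% were below 0. No gene of the 10 passed, against 0.00902% of all genes, and the lowest adjusted p was 0.637, for Mcm3 (limma). None reached an unadjusted p under 0.05 in the lower direction, against 4.43% of all genes, and 2 (Mcm3 and Mcm5) did when either control was left out of the fit, against 4.51%. The 2 groups overlapped in all 10, while 2.28% of all genes lay without overlap in that direction. The group means thus stood in the order control, PUVA 3D, PUVA 7D in all 10 genes, an order found in 13.9% of all genes. In Mcm2, Mcm3, Mcm4, Mcm5 and Mcm6 this order rested on control 2, since with control 1 alone PUVA 3D lay above control. PUVA 7D and PUVA 3D overlapped in all 10, and PUVA 3D and control in all but Gins1 and Rrm2.

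Mcm5 averaged 7.02 ± 0.17 in the PUVA 7D group against 7.36 ± 0.27 in the PUVA 3D group (SD, n = 4 each), a log2 difference of -0.34 ± 0.22 (SE, limma adjusted p = 0.651). Mcm3 averaged 7.41 ± 0.21 against 7.72 ± 0.20, a difference of -0.31 ± 0.20. Mcm6 had -0.24 ± 0.18, Mcm2 -0.20 ± 0.23, Mcm4 -0.11 ± 0.13 and Mcm7 -0.09 ± 0.15. Outside the ring, Cdc45 had -0.13 ± 0.13, Pcna -0.11 ± 0.09, Gins1 -0.09 ± 0.14 and Rrm2 -0.06 ± 0.13. All of these but Mcm3, Mcm5, Mcm6 and Pcna were no larger than their standard errors.

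Single arrays shaped this comparison too. PUVA 3D replicate 2 was the highest of the 8 PUVA arrays in 7 of the 10 genes, against 16.1% of all genes, and PUVA 7D replicate 4 the lowest in 6 and replicate 3 in the other 4, against 20.2% of all genes for either. Without PUVA 3D replicate 2 all 10 genes remained below 0, with a median of -0.08 and values from -0.23 to -0.06. That array also had the highest mean log2 level of the 6 macrophage markers, at 10.67 against 9.83 to 10.18 on the other PUVA 3D arrays and 9.63 to 10.08 on the PUVA 7D arrays. It was also highest for the 5 fibroblast markers, at 11.95. The other PUVA 3D arrays had 11.35 to 11.71 and the PUVA 7D arrays 10.95 to 11.45. Their part in the difference was not tested.

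Other genes of replication and its control also lay lower against both controls together and near 0 against control 1. The 80 measured, called other replication genes here, include G1/S control genes and some that restrain replication, such as Cdkn1a, Rb1 and Gmnn. Of these 80, 69 lay below 0 in the PUVA 7D group against control, with a median log2 difference of -0.25, and 68 in the PUVA 3D group, with a median of -0.14. None of the 80 passed the adjusted threshold in either direction, with lowest adjusted p of 0.748 for PUVA 7D and 0.362 for PUVA 3D (limma). At an unadjusted p under 0.05, 27 were lower and 0 higher in PUVA 7D skin, against 2.68% of all genes lower. In PUVA 3D skin 12 were lower and 0 higher, against 4.07% of all genes lower. In 19 of the 80 the PUVA 7D arrays lay below both controls, against 5.85% of all genes. In 3 they lay above both, against 1898 of 22180 genes. The PUVA 3D arrays lay below both controls in 6, against 7.89% of all genes, and above both in 2, against 9.52%. With control 1 alone the median was -0.04 in PUVA 7D skin, with 51 of the 80 below 0, and 0.02 in PUVA 3D skin, with 31 below 0. At an unadjusted p under 0.05, control 1 alone left 1 gene lower in PUVA 7D skin (Chaf1b), against 1.0% of all genes, and in PUVA 3D skin 0 lower, against 2.99%, and 3 higher, against 3.74%. Those 3 were Cdt1, E2f1 and E2f7, named after their values were seen. With control 2 alone the median of the 80 was -0.47 in PUVA 7D and -0.35 in PUVA 3D skin. Between the PUVA groups 60 of the 80 lay below 0 at PUVA 7D, with a median of -0.07, and 2 were lower at an unadjusted p under 0.05, a share of 2.5% against 4.43% of all genes. These were Chaf1b and Pole2, the second named after its values were seen. When either control was left out of the fit, 9 of the 80 were lower at that p, against 4.51% of all genes.

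By role, the 13 genes of origin recognition and loading had medians of -0.20 in PUVA 7D and -0.09 in PUVA 3D skin against control. Cdc6, which loads the MCM ring, had log2 differences of -0.51 ± 0.17 at 7D and -0.38 ± 0.17 at 3D (SE), and Orc1, the largest subunit of the origin recognition complex, -0.49 ± 0.17 at 7D and -0.40 ± 0.17 at 3D. The 14 genes of GINS and initiation had medians of -0.29 at 7D and -0.16 at 3D. Ticrr, which brings Cdc45 to origins, had -0.60 ± 0.24 at 7D and -0.58 ± 0.24 at 3D, with 6.98 on control 2 and 5.62 to 5.98 on the other 9 arrays. Dbf4, the activator of the kinase that fires origins, had -0.36 ± 0.12 at 7D and -0.29 ± 0.12 at 3D, and Clspn, a checkpoint mediator at forks, -0.37 ± 0.15 at 7D and -0.17 ± 0.15 at 3D. No gene of either role passed the adjusted threshold. Against control 1 alone, Cdc6 had -0.22 at 7D and -0.09 at 3D, Orc1 -0.14 at 7D and -0.05 at 3D, and Ticrr -0.03 at 7D and -0.02 at 3D. Dbf4 then had -0.13 at 7D and -0.06 at 3D, and Clspn -0.07 at 7D and 0.13 at 3D, with its direction turned at 3D. Over all 7 roles, the medians with control 1 alone ran from -0.07 to 0.01 at 7D and from 0.00 to 0.08 at 3D, and with control 2 alone from -0.62 to -0.28 at 7D and from -0.48 to -0.17 at 3D.

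The 12 genes of polymerases and primase had medians of -0.25 in PUVA 7D and -0.08 in PUVA 3D skin against control. Pole, the catalytic subunit of the leading strand polymerase, had log2 differences of -0.78 ± 0.24 at 7D and -0.52 ± 0.24 at 3D (SE), and these became -0.25 at 7D and 0.01 at 3D with control 1 alone. Prim1, the catalytic primase subunit, had -0.27 ± 0.11 at 7D and -0.35 ± 0.11 at 3D, and Pola2 of the primase complex -0.40 ± 0.13 at 7D and -0.21 ± 0.13 at 3D. Prim1 with control 1 alone had -0.08 at 7D and -0.16 at 3D, and Pola2 -0.15 at 7D and 0.04 at 3D. The 11 measured genes of clamp loading and strand maturation had medians of -0.21 at 7D and -0.19 at 3D. Rfc3, a clamp loader subunit, had -0.26 ± 0.11 at 7D and -0.20 ± 0.11 at 3D, Rnaseh2a, which removes ribonucleotides from DNA, -0.19 ± 0.08 at 7D and -0.09 ± 0.08 at 3D, and Rpa1, the large subunit of the single-strand binding protein, -0.18 ± 0.10 at 7D and -0.19 ± 0.10 at 3D. Set against control 1 alone, Rfc3 had -0.06 at 7D and 0.00 at 3D, and Rnaseh2a -0.10 at 7D and 0.00 at 3D. For Rpa1 both controls had a log2 value of 8.14, above all PUVA 7D arrays at 7.79 to 8.06 and all PUVA 3D arrays at 7.81 to 8.03, with limma adjusted p of 0.889 at 7D and 0.562 at 3D.

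The 8 measured genes of nucleotide supply had medians of -0.15 in PUVA 7D and -0.10 in PUVA 3D skin against control. Rrm1, the partner of Rrm2 in ribonucleotide reductase, had log2 differences of -0.41 ± 0.13 at 7D and -0.37 ± 0.13 at 3D (SE), and the thymidine kinase gene Tk1 -0.48 ± 0.18 at 7D and -0.49 ± 0.18 at 3D. Rrm1 with control 1 alone had -0.12 at 7D and -0.08 at 3D, and Tk1 -0.05 at 7D and -0.07 at 3D. The 16 measured genes of G1/S control had medians of -0.19 at 7D and -0.13 at 3D, with Ccna2, cyclin A2 of S phase, at -0.54 ± 0.17 at 7D and -0.48 ± 0.17 at 3D, and Ccnd1, cyclin D1 of G1 phase, at -0.41 ± 0.13 at 7D and -0.45 ± 0.13 at 3D. Ccna2 with control 1 alone had -0.19 at 7D and -0.13 at 3D, and Ccnd1 -0.19 at 7D and -0.23 at 3D. In the 6 genes of chromatin assembly and methylation the medians were -0.28 at 7D and -0.19 at 3D. Uhrf1, which guides DNA methylation to new strands, had -0.84 ± 0.23 at 7D and -0.54 ± 0.23 at 3D, and Chaf1b of the histone chaperone CAF-1 had -0.79 ± 0.21 at 7D and -0.40 ± 0.21 at 3D. These became, with control 1 alone, -0.32 at 7D and -0.02 at 3D for Uhrf1, and -0.28 at 7D and 0.10 at 3D for Chaf1b.

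**Figure D4:**
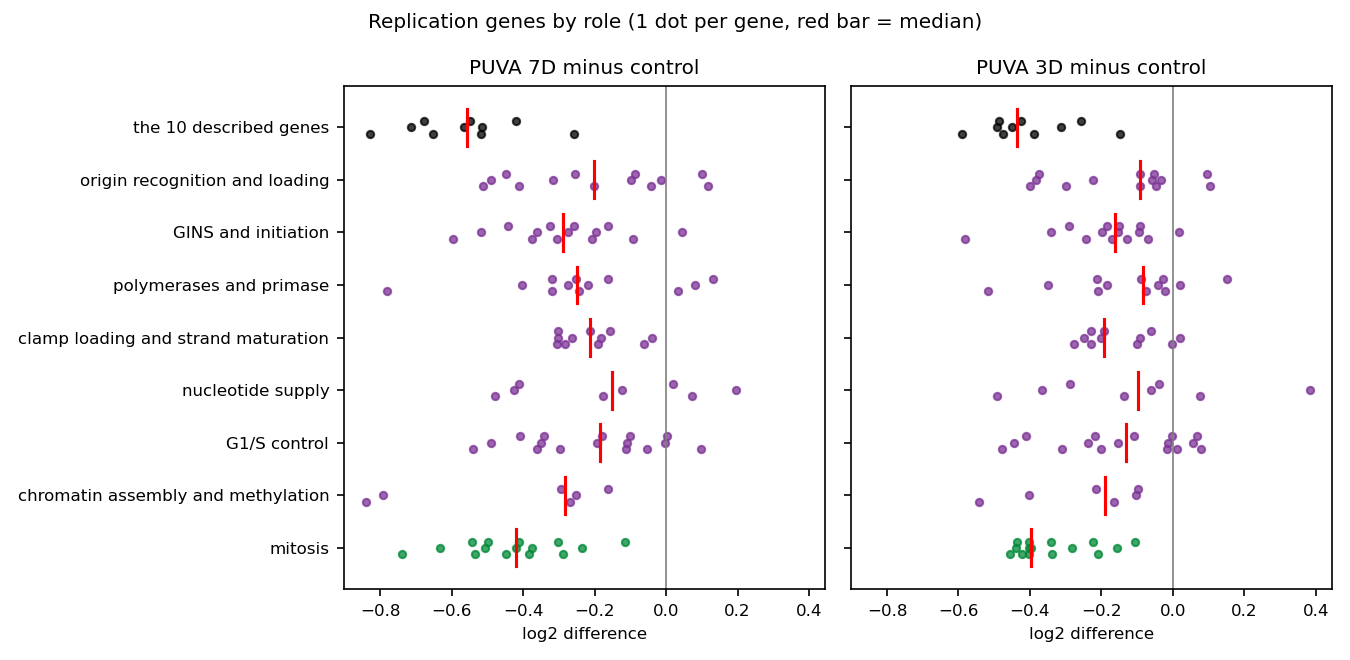
Log2 differences (x axis) of PUVA 7D minus control (left) and PUVA 3D minus control (right) for the 10 genes, the other replication genes by role and 15 mitosis genes (y axis), with 1 dot per gene and the median as a red bar. The medians of the 10 genes, -0.56 and -0.44, are set beside those of the role groups, which run from -0.29 to -0.15 on the left and from -0.19 to -0.08 on the right.

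Mitosis genes, which act after replication, were highest on the same control. The 15 measured had medians of -0.42 in PUVA 7D and -0.40 in PUVA 3D skin against control, all 15 below 0 in both. With control 1 alone these were -0.14 in PUVA 7D and -0.12 in PUVA 3D skin, and with control 2 alone -0.75 in PUVA 7D and -0.66 in PUVA 3D skin. Against both controls none of the 15 passed the adjusted threshold, with lowest adjusted p of 0.71 at 7D and 0.312 at 3D (limma). At an unadjusted p under 0.05, 13 were lower at 7D and 7 at 3D (limma), against 2.68% and 4.07% of all genes. The PUVA 7D arrays lay below both controls in 11 of the 15, against 5.85% of all genes. The PUVA 3D arrays did so in 7, against 7.89%. The mean of the 15 on control 1 was 7.32, above the PUVA arrays, at 7.05 to 7.22 at 7D and 7.23 to 7.30 at 3D. Mki67, the proliferation marker, had log2 values of 9.55 to 9.69 on the PUVA 7D arrays, 9.50 to 9.62 on the PUVA 3D arrays, and 9.74 and 10.24 on the controls. The 6 genes whose deviations over the 10 arrays were nearest to the mean of the 10 replication genes were Pbk, Ncapg2, Mad2l1, Kif15, Orc1 and Wdhd1. Their root mean square difference from that mean was 0.059 to 0.082 on the log2 scale, against a median of 0.33 over 19235 named genes and 0.294 for a flat profile. The 6 were picked as the smallest of these values, so their distance from the median carries no test. The mean deviation of the 10 was 0.80 on control 2 and -0.33 to 0.15 on the other arrays, so nearness mostly meant being high on control 2. Among the 10 genes themselves the root mean square difference ran from 0.083 for Mcm4 to 0.173 for Pcna. Pbk, a mitotic kinase, came nearest, with 6.57 to 6.83 on the PUVA 7D arrays, 6.84 to 6.92 on the PUVA 3D arrays, and 6.91 and 7.64 on the controls.

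Markers of the growing hair follicle were also highest on control 2. The mean log2 level of 12 such markers was 5.23 to 5.36 on the PUVA 7D arrays and 5.12 to 5.54 on the PUVA 3D arrays, against 6.33 on control 1 and 8.49 on control 2. All 12 lay below 0 in both PUVA groups against control, with median log2 differences of -1.81 at 7D and -1.78 at 3D. At an unadjusted p under 0.05, 10 were lower at 7D and 11 at 3D (limma), against 2.68% and 4.07% of all genes. In 10 of the 12 at 7D and 8 at 3D, the PUVA arrays lay below both controls, against 5.85% and 7.89% of all genes. Control 1 alone gave medians of -0.72 at 7D and -0.68 at 3D, and control 2 alone -2.96 at 7D and -2.93 at 3D. The inner root sheath keratin gene Krt71 had 3.85 to 5.14 on the PUVA 7D arrays, 4.36 to 5.60 on the PUVA 3D arrays, and 8.04 and 11.47 on the controls. Of the 12, the markers above the lower quartile of genes on every array of a group numbered 8 in PUVA 7D, 7 in PUVA 3D and 10 in control. The 4 melanocyte markers had a mean of 6.44 to 6.68 on the PUVA 7D arrays, 6.40 to 7.57 on the PUVA 3D arrays, and 6.88 and 8.53 on the controls. The 5 basal keratinocyte markers were level, at 10.48 to 10.70 on the PUVA 7D arrays, 10.40 to 10.63 on the PUVA 3D arrays, and 10.63 and 10.55 on the controls. The 6 macrophage markers lay the other way, at 9.63 to 10.08 on the PUVA 7D arrays, 9.83 to 10.67 on the PUVA 3D arrays, and 9.56 and 9.72 on the controls. All 6 were above 0 in both PUVA groups, with median log2 differences of 0.23 at 7D and 0.53 at 3D. With both controls, 5 were higher at 3D at an unadjusted p under 0.05 (limma), against 5.67% of all genes, and 0 at 7D. The 3D median was 0.58 with control 1 alone and 0.51 with control 2 alone. The highest mean of these markers, 10.67, was on PUVA 3D replicate 2. The 4 endothelial markers had means of 9.12 to 9.21 on the PUVA 7D arrays, 9.19 to 9.34 on the PUVA 3D arrays, and 9.01 and 8.89 on the controls. Each of the 4 lay above both controls on all PUVA 3D arrays, against 9.52% of all genes. The 5 fibroblast markers had means of 10.95 to 11.45 on the PUVA 7D arrays, 11.35 to 11.95 on the PUVA 3D arrays, and 10.91 and 11.50 on the controls. The 3 sebocyte markers had means of 10.26 to 10.51 on the PUVA 7D arrays, 9.31 to 10.23 on the PUVA 3D arrays, and 10.81 and 10.32 on the controls. Means of T cell, neutrophil and differentiated keratinocyte markers overlapped between each PUVA group and control. No marker of any of these cell types, hair follicle and melanocyte included, passed the adjusted threshold against both controls together. The lowest adjusted p of the hair follicle markers was 0.444 at 7D and 0.086 at 3D (limma). On control 1 the mean of the hair markers lay above all PUVA arrays. The mean of the 10 replication genes there was 7.39, within the PUVA range of 7.08 to 7.56, though Gins1 and Rrm2 lay above all 8 PUVA arrays. Control 2 was the highest array for both lists. The part of these markers in the replication gene differences was not tested.

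**Figure D5:**
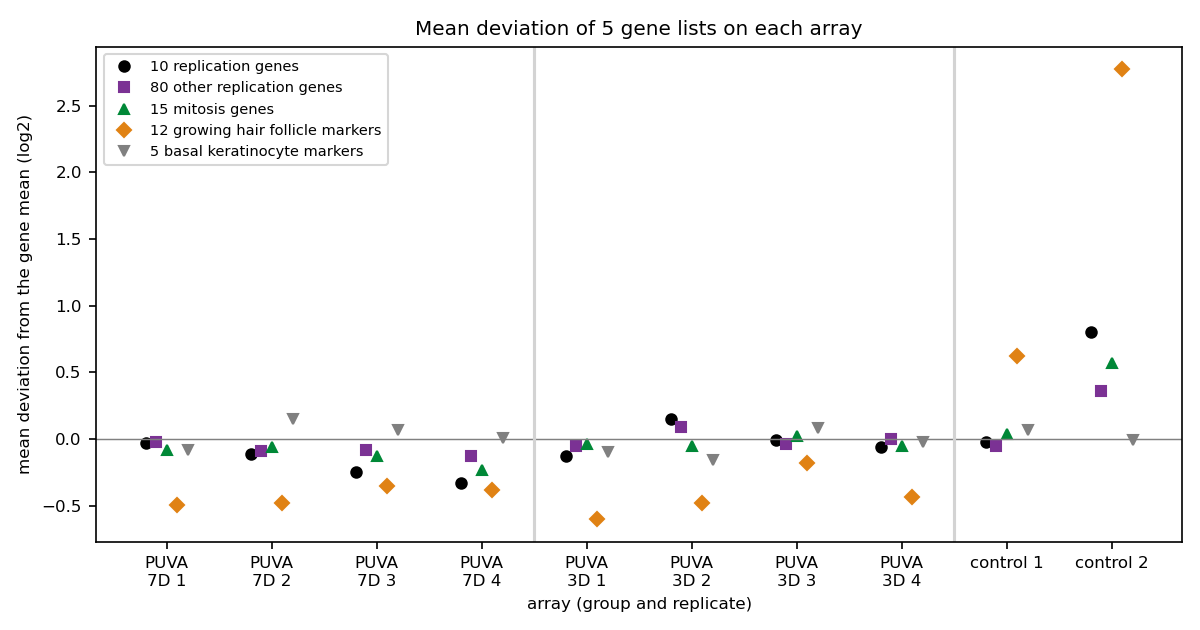
Mean deviation of 5 gene lists from each gene's own mean (y axis, log2) on each of the 10 arrays (x axis), with 1 symbol per list. On control 2 the 10 replication genes stand at 0.80, the mitosis genes at 0.57 and the hair follicle markers at 2.77, while on control 1 they stand at -0.02, 0.04 and 0.62.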

How the data were processed

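The deposited values are on a log scale, with 41345 probe sets on 10 arrays, and were taken as log2 from their range; how the authors summarised and normalized them is not stated in any label or header seen. According to the labels' protocols, a miRNeasy kit with DNase digest gave the RNA and the Affymetrix WT PLUS kit the labelled target. Of 25335 probe sets with a listed gene, 23521 had 1 symbol and were used. The brightest probe set on average over the arrays stood for each of 22180 genes. No filter on dim signals was applied.

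Group means over all 10 arrays were fitted with limma 3.58.1 in R 4.3.3 (lmFit, eBayes, two-sided), with Benjamini-Hochberg adjustment over all genes of each comparison and a threshold of 0.05. The limma fit was tested on simulated data with the same spread in every group, so that test does not cover controls that vary more. The 10 genes and all gene lists were chosen with earlier results of these data known, and members of lists are described by counts and medians with no list test. Named genes outside the 10 were, for each role and comparison with control, the 2 with the smallest p, and the 6 nearest in profile, with gene models left out, and Mki67 and Krt71 for context. Alternatives were another filter, probe set rule, normalization, variance model, array weights, sample set and threshold, and leaving out each array. No sequences were used here.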

Additional observations from a re-analysis of the deposited data

Results flagged for a closer look

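Among the 20 sets of 4 PUVA arrays examined, 2 for each of the 10 genes, 1 held a lone array. Mcm7 had a log2 value of 7.26 on PUVA 7D replicate 4, against 7.58 to 7.62 on the other 3 PUVA 7D arrays. About 1 in 20 such sets is flagged by chance.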

How the results depend on the processing

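Other processing, which kept both controls, left all 10 genes on the same side of 0 and of the threshold in all 3 comparisons. The filter, variance model, sample set and threshold cannot change a log2 difference, so for them only the side of the threshold was open. With the mean of all probe sets Rrm2 had -0.34 for PUVA 7D minus control, against -0.55 with the brightest one, and -0.24 for PUVA 3D minus control, against -0.49. The medians of the 10 ran from -0.57 to -0.53 for PUVA 7D minus control, from -0.46 to -0.41 for PUVA 3D minus control and from -0.13 to -0.09 for PUVA 7D minus PUVA 3D. Those of the 80 other replication genes ran from -0.25 to -0.22, -0.15 to -0.14 and -0.07 to -0.04. Leaving out each array gave medians of the 10 from -0.98 to -0.16 for PUVA 7D minus control and from -0.80 to 0.00 for PUVA 3D minus control, with the extremes always without control 1 and without control 2, and from -0.15 to -0.08 between the PUVA groups. For the 80 they were -0.47 to -0.04, -0.35 to 0.02 and -0.09 to -0.05. The number past the threshold was 0 to 9 of the 10 and 0 to 17 of the 80 for PUVA 7D minus control, and 0 to 3 and 0 to 10 for PUVA 3D minus control, with calls only without control 1. With arrays left out in turn, the PUVA 3D difference ran from -1.04 to 0.15 for Mcm2, -0.75 to 0.23 for Mcm3, -0.67 to 0.05 for Mcm4, -1.08 to 0.11 for Mcm5 and -0.96 to 0.01 for Mcm6, the lower end without control 1 and the upper, with the direction turned, without control 2. Between the PUVA groups Rrm2 ran from -0.10 to 0.01, the upper end without PUVA 7D replicate 4. The cause was not tested. No paired analysis was possible because the sample numbers are not shared between groups. Signal over background was not analysed here.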
